A study of Homo sapiens with 8 samples.

Results

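The genes described here encode 46 proteins of sugar metabolism: glucose and lactate transporters, the enzymes of glycolysis, of the pentose phosphate pathway and of the tricarboxylic acid (TCA) cycle, and the neighbouring enzymes PC, PCK2 and CKB. They were taken from the deposited count table by exact match of the gene symbol, and all 46 were found among its 16082 genes. Poly(A) RNA was sequenced in bulk from KYSE150, an established line grown from a human esophageal squamous cell carcinoma, in 4 shHNRNPC samples and 4 control samples. The shHNRNPC samples expressed a short hairpin RNA against HNRNPC, a nuclear RNA-binding protein that coats new transcripts, and the controls carried the genotype label Control. Neither group had a further treatment per the labels, and the sources used here state neither the hairpin's sequence, nor the control construct, nor how many clones or cultures were used. The p-values below therefore measure only how far these samples spread, and that spread may be technical. In bulk RNA a change in the fraction of cells that express a gene cannot be told apart from a change in RNA per cell.

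Glycolysis splits glucose into pyruvate, which is reduced to lactate and exported or is carried into mitochondria, where pyruvate dehydrogenase feeds it into the TCA cycle. The pentose phosphate pathway branches off at glucose 6-phosphate and supplies NADPH and ribose. Tumour cells are known for high glucose uptake and lactate release, and several steps are run by alternative isozymes encoded by separate genes.

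Library totals were 28323403 to 34913500 counts. HNRNPC, the targeted gene, stood at 33.8, 32.9, 32.5 and 36.5 CPM (counts divided by the TMM-scaled library total in units of 1e+06) in the shHNRNPC libraries, against 601, 589.9, 571 and 587 CPM in the control libraries, so it was lower in every library labelled shHNRNPC (5.78% of control on average). On the second principal component of log2 CPM, shHNRNPC replicates 1 and 4 (14.5 and 6.13) stood apart from replicates 2 and 3 (-8.98 and -12.1). Of 10 epithelial and squamous markers 9 passed the filter, of which 4 were higher (KRT5, KRT17, CDH1 and EPCAM) and 5 lower (TP63, DSG3, PERP, KRT14 and KRT6A). KRT5 averaged 1123 CPM in shHNRNPC samples and 565 CPM in control samples, and TP63 averaged 129 CPM in shHNRNPC samples and 176 CPM in control samples. KRT14 (4.89 CPM in shHNRNPC and 8.35 CPM in control samples) and KRT6A (1.96 CPM in shHNRNPC and 6.04 CPM in control samples) were low, and SOX2 was near 0 in both groups. The 12 measured markers of other cell types summed to 9.98 to 11.2 CPM in the shHNRNPC libraries and 5.72 to 6.44 CPM in the control libraries. COL1A1 made up most of that sum, 10 of the 12 were below 1 CPM in every library, and DCN, LYZ, ALB and COL1A2 were at or near 0. The part of these markers in the results below was not tested.

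All 46 members passed the filter on low counts. Of them 30 rose and 11 fell with HNRNPC knockdown and 5 were not called (edgeR's quasi-likelihood test at an adjusted p of 0.05, Benjamini-Hochberg over the 12001 genes that passed the filter). Across all genes tested 77.3% were called, 38.7% higher and 38.6% lower, so a call by itself is common in these data, whereas 65.2% of members were higher and 23.9% lower. The median log2 fold change was 0.16 over the members and -0.01 over all genes tested. Called changes of at least 0.5 on the log2 scale were rises in 12 of the 46 members and falls in 3 of 46. Over all 12001 genes tested, 1499 (12.5%) rose and 1785 (14.9%) fell by as much. The CPM of the groups did not overlap for 39 of the 46 members, of which 29 were higher and 10 lower. The background was 8492 of the 12001 genes tested, or 70.8% (35.4% higher and 35.4% lower). Counts of members were nearly the same without shHNRNPC replicates 1 and 4 (29 higher, 10 lower).

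The branches differed in their summed transcripts. The 22 glycolysis members together held 16910, 16895, 17303 and 17261 CPM in the shHNRNPC libraries, against 14258, 14046, 14076 and 14268 CPM in the control libraries, so every knockdown library stood above every control library. The 12 TCA cycle members held 1908 ± 5.60 CPM in shHNRNPC samples and 1742 ± 13.9 CPM in control samples (SD, n = 4 each), or 109.5% of control. The 6 pentose phosphate members went the other way, with 1363 ± 20.2 CPM in shHNRNPC samples and 1543 ± 23.6 CPM in control samples, or 88.3% of control. Most of that difference lay in TKT, and the other 5 summed to 455 ± 6.17 CPM in shHNRNPC samples and 471 ± 5.45 CPM in control samples, or 96.7% of control. GAPDH, the most abundant member, holds a large part of the sum over all members: without it the remaining 45 members stood at 13975 ± 135 CPM in shHNRNPC samples and 11497 ± 86.6 CPM in control samples.

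**Figure D1:**
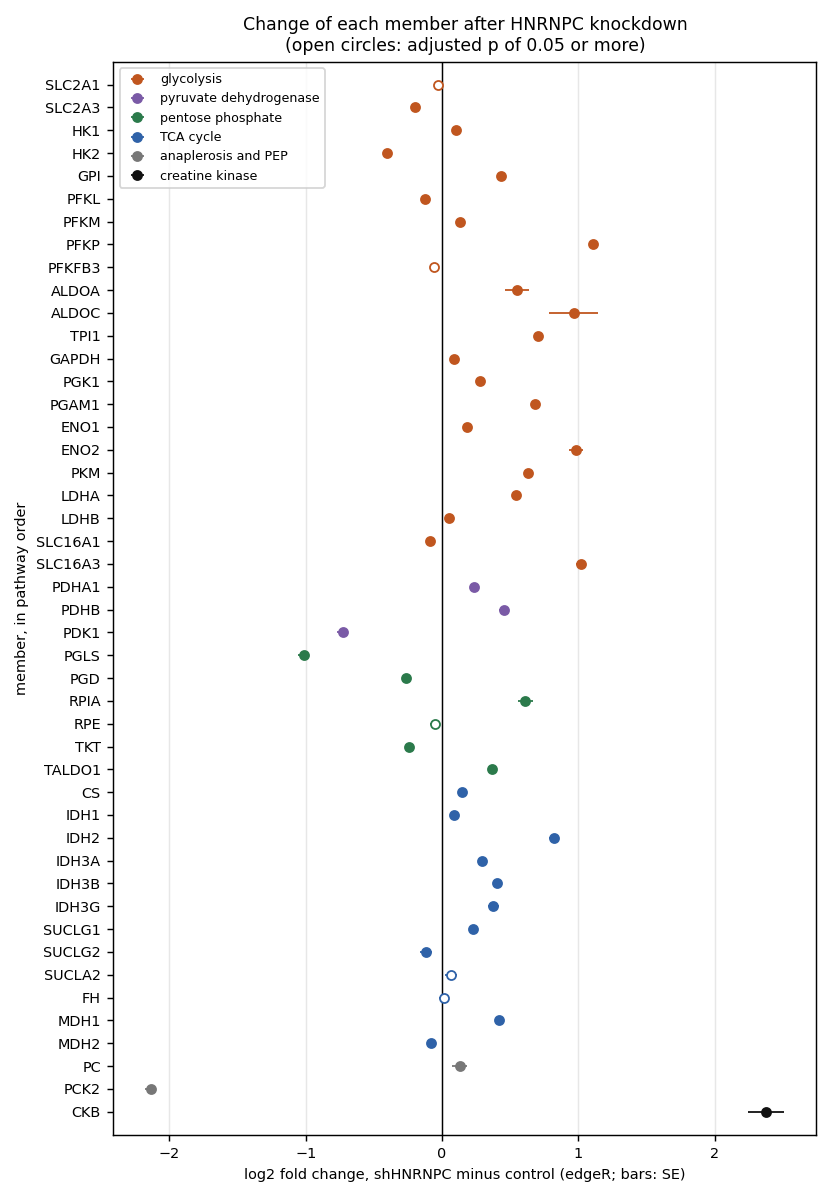
Log2 fold change (shHNRNPC minus control) of each of the 46 members with its standard error from edgeR, in pathway order from glucose uptake at the top to CKB at the bottom and coloured by branch; filled circles passed the adjusted p threshold of 0.05 and open circles did not. CKB (2.38) and PCK2 (-2.14) lie at the ends, and the enzymes from TPI1 to LDHB all lie right of 0.

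In uptake and the early steps of glycolysis, up to phosphofructokinase, PFKP and GPI rose most and HK2 fell most, while the glucose transporters changed little or were not called. SLC2A1, the main glucose transporter of many tumour cells, had 195 ± 4.40 CPM in shHNRNPC samples and 199 ± 4.49 CPM in control samples and was not called (log2 fold change -0.03, edgeR adjusted p = 0.23). SLC2A3, a transporter of higher glucose affinity, had 58.5, 59.4, 61.1 and 60.4 CPM in the shHNRNPC libraries, against 67.4, 68.3, 67.9 and 71.0 CPM in the control libraries. The groups did not overlap, and the fall was small (-0.20, SE 0.0343, edgeR adjusted p = 6.04e-07).

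Hexokinase traps glucose in the cell by phosphorylation. HK2, the inducible isozyme, had 106, 114, 112 and 115 CPM in the shHNRNPC libraries, against 146, 151, 142 and 151 CPM in the control libraries. All knockdown libraries were lower, at 75.6% of control on average (-0.40, SE 0.0275, edgeR adjusted p = 8.66e-21). HK1, the more widely expressed isozyme, rose slightly, to 317 ± 6.42 CPM in shHNRNPC samples, against 296 ± 7.22 CPM in control samples (0.10). GPI, which converts glucose 6-phosphate to fructose 6-phosphate, rose to 583 ± 6.76 CPM, against 432 ± 7.70 CPM in control samples (0.43).

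Phosphofructokinase commits sugar to glycolysis, and its platelet-type gene PFKP showed the largest change within the 22 glycolysis members. PFKP had 582, 596, 613 and 609.6 CPM in the shHNRNPC libraries, against 287, 273, 274 and 279 CPM in the control libraries. Its level was 216% of control (log2 fold change 1.11, SE 0.0203, edgeR adjusted p = 3.6e-51). PFKP lies on chromosome 10 from 3067548 to 3136805 (RefSeq annotation of GRCh38). The muscle-type gene PFKM rose by a small amount (0.13) and the liver-type gene PFKL fell (-0.13). PFKFB3, which makes the phosphofructokinase activator fructose 2,6-bisphosphate, was not called (-0.06, edgeR adjusted p = 0.0992), with 77.9 ± 1.45 CPM in shHNRNPC samples and 81.0 ± 2.43 CPM in control samples. Genes of the same family outside the members were mixed. PFKFB2 fell to 34.9 ± 2.21 CPM in shHNRNPC samples, against 52.6 ± 1.58 CPM in control samples (-0.59). PFKFB1 fell too (-0.82), and PFKFB4 rose (0.23).

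All 11 members at the steps from aldolase to lactate dehydrogenase were called higher, by 0.05 to 0.98 on the log2 scale. This stretch was set apart after the values were seen. Outside the members, the enolase gene ENO3 fell (-0.66, edgeR adjusted p = 3.25e-08). It had 5.40 ± 0.296 CPM in shHNRNPC samples and 8.51 ± 0.238 CPM in control samples. PGAM4, also outside the members, rose (1.08). TPI1, which interconverts the triose phosphates, had 1123, 1142, 1143 and 1142 CPM in the shHNRNPC libraries, against 707, 694, 707 and 683 CPM in the control libraries (0.70, SE 0.0178, edgeR adjusted p = 1.78e-43). PGAM1, the phosphoglycerate mutase, had 411, 416, 431 and 421 CPM in the shHNRNPC libraries, against 256, 263, 259 and 271 CPM in the control libraries (0.68, SE 0.0209, edgeR adjusted p = 9.56e-39). In both genes the lowest knockdown library lay well above the highest control library. Release 29 of GENCODE names 13 pseudogenes after PGAM1, and reads can be shared with such copies.

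PKM encodes pyruvate kinase in its M1 and M2 splice forms, which counts per gene do not separate. It had 2274, 2263, 2308 and 2321 CPM in the shHNRNPC libraries, against 1503, 1469, 1492 and 1464 CPM in the control libraries, with no overlap (0.63, SE 0.0169, edgeR adjusted p = 6.71e-42). ENO2, the neuronal enolase, had 35.9, 33.7, 34.2 and 33.0 CPM in the shHNRNPC libraries, against 16.7, 17.3, 17.9 and 17.5 CPM in the control libraries (0.98, SE 0.0527, edgeR adjusted p = 6.73e-26). The far more abundant ENO1 rose less, to 1405 ± 12.5 CPM in shHNRNPC samples, against 1237 ± 16.3 CPM in control samples (0.18), and PGK1, the phosphoglycerate kinase, changed by 0.28.

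GAPDH, the dehydrogenase of this pathway and a common reference gene, had 6731 ± 119 CPM in shHNRNPC samples and 6325 ± 62.4 CPM in control samples (SD, n = 4 each). The rise was 0.09 on the log2 scale (SE 0.0164, edgeR adjusted p = 1.65e-06), and it stayed between 0.07 and 0.10 over all 15 alternative settings, the scalings included. GENCODE lists 62 pseudogenes named after GAPDH, so part of its reads may have been assigned elsewhere.

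The aldolase counts are uncertain. ALDOA, usually the main aldolase of proliferating cells, had only 10.8, 12.1, 11.2 and 10.8 CPM in the shHNRNPC libraries, against 7.60, 7.11, 8.18 and 7.75 CPM in the control libraries. In GENCODE 84.5% of its exon bases are shared with other genes, mainly a same-strand neighbour that spans it, and the sources used here do not say how shared bases were counted; its part in the result was not tested. ALDOC, the brain-type aldolase, had 2.73, 3.02, 4.68 and 3.35 CPM in the shHNRNPC libraries, against 1.74, 1.93, 1.62 and 1.78 CPM in the control libraries. Both genes passed the test without overlap between groups (0.55, SE 0.0880, and 0.96, SE 0.180; edgeR adjusted p = 1.02e-07 and 2.72e-06), ALDOC with the wider spread among knockdown libraries.

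Lactate dehydrogenase reduces pyruvate to lactate, with the LDHA subunit favoured in glycolytic tissue. LDHA had 1003, 999.7, 1024 and 1012 CPM in the shHNRNPC libraries, against 689, 697, 673 and 719 CPM in the control libraries (0.54, SE 0.0186, edgeR adjusted p = 4.64e-36). LDHB, the heart-type subunit, had 958 ± 16.2 CPM in shHNRNPC samples and 924 ± 15.2 CPM in control samples. Its groups overlapped, its call (0.05, edgeR adjusted p = 0.00695) was lost when libraries were scaled by totals alone (0.03, adjusted p = 0.0935; range over alternatives 0.00113 to 0.0935), and 62.9% of its exon bases overlap another gene.

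Of the lactate transporters, SLC16A3 (MCT4), the exporter of glycolytic cells, had 78.3, 78.2, 81.0 and 74.8 CPM in the shHNRNPC libraries, against 38.8, 38.1, 39.9 and 37.3 CPM in the control libraries. It reached 203% of control (1.02, SE 0.0372, edgeR adjusted p = 9.53e-35). SLC16A3 lies on chromosome 17 from 82217934 to 82240086. SLC16A1 (MCT1), which also takes lactate up, fell by a small amount, with 218 ± 4.03 CPM in shHNRNPC samples and 231 ± 3.51 CPM in control samples (-0.09).

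**Figure D2:**
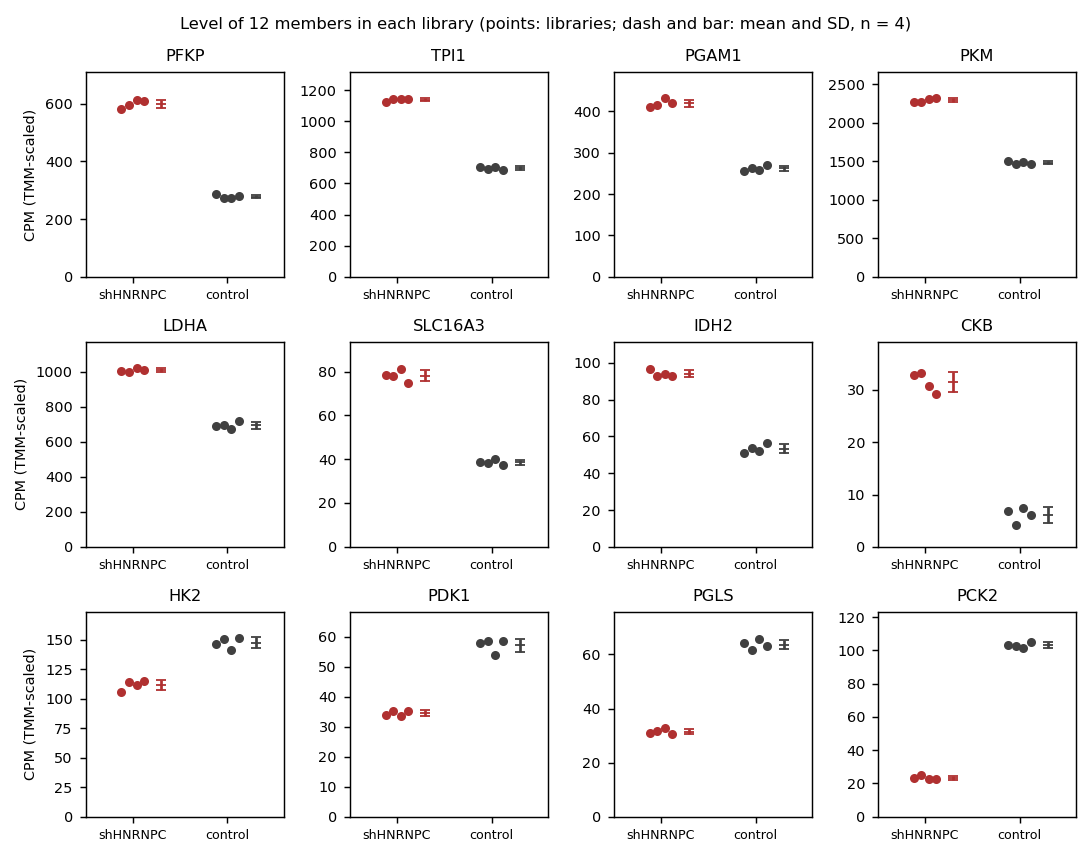
TMM-scaled CPM of 12 members in each of the 4 shHNRNPC libraries (left, red) and 4 control libraries (right, grey), with the mean and SD beside the points and each vertical axis starting at 0. In every panel the groups are apart: 8 members stand higher after knockdown (PFKP to CKB) and HK2, PDK1, PGLS and PCK2 stand lower.

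At the entry of pyruvate into mitochondria both dehydrogenase subunit members rose and the kinase member PDK1 fell. PDK1 is one of several such kinases. PDK1, which phosphorylates and inactivates pyruvate dehydrogenase and is a known target of hypoxia-inducible factor, had 33.9, 35.2, 33.5 and 35.4 CPM in the shHNRNPC libraries, against 57.8, 58.4, 54.0 and 58.6 CPM in the control libraries. It fell to 60.3% of control (-0.73, SE 0.0411, edgeR adjusted p = 6.68e-25). PDHB, the E1 beta subunit, rose to 71.4 ± 2.75 CPM in shHNRNPC samples, against 52.2 ± 2.41 CPM in control samples (0.45). PDHA1, the E1 alpha subunit, rose to 159 ± 4.17 CPM, against 135 ± 3.11 CPM in control samples (0.24), with 25.4% of its exon bases overlapping an opposite-strand gene. Other genes of this step were picked after their values were seen. The further subunit genes DLAT (0.25), PDHX (0.26) and DLD (0.26) rose. Of the mitochondrial pyruvate carrier genes, MPC2 rose (0.25) and MPC1 was not called (0.03, edgeR adjusted p = 0.743). The kinase and phosphatase genes were mixed. The kinase gene PDK3 rose to 16.9 ± 1.77 CPM in shHNRNPC samples, against 12.4 ± 0.617 CPM in control samples (0.45), and PDK2 was not called (0.01, edgeR adjusted p = 0.941). The phosphatase genes PDP1 (-0.32) and PDP2 (-0.36), whose products reverse the phosphorylation, and the phosphatase regulatory subunit gene PDPR (-0.53) fell.

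The pentose phosphate pathway was the branch with more falls than rises, 3 against 2 of 6 members. PGLS, the 6-phosphogluconolactonase of the oxidative arm, had 31.0, 31.5, 32.9 and 30.4 CPM in the shHNRNPC libraries, against 64.2, 61.7, 65.6 and 63.0 CPM in the control libraries. It stood at 49.5% of control with no overlap (-1.01, SE 0.0405, edgeR adjusted p = 1.33e-32). PGLS lies on chromosome 19 from 17511649 to 17521288, and 25.4% of its exon bases overlap an opposite-strand gene. PGD, the next enzyme and a source of NADPH, fell to 153 ± 4.87 CPM in shHNRNPC samples, against 183 ± 3.86 CPM in control samples (-0.26).

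In the non-oxidative arm, which rearranges pentoses back into glycolytic sugars, RPIA, the ribose 5-phosphate isomerase, had 37.0, 41.2, 41.2 and 39.2 CPM in the shHNRNPC libraries, against 23.7, 25.5, 24.8 and 30.2 CPM in the control libraries (0.61, SE 0.0553, edgeR adjusted p = 5.2e-13). The lowest knockdown library exceeded the highest control library. TALDO1 (transaldolase) rose to 162 ± 2.35 CPM in shHNRNPC samples, against 126 ± 1.70 CPM in control samples (0.37). The much more abundant TKT (transketolase) fell to 908 ± 14.2 CPM in shHNRNPC samples, against 1072 ± 24.3 CPM in control samples (-0.24). RPE, the ribulose-phosphate epimerase, was not called (-0.05, edgeR adjusted p = 0.153), and 23.9% of its exon bases overlap other genes.

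In the TCA cycle 8 of 12 members rose, 2 fell and 2 were not called. IDH2, the mitochondrial NADP-dependent isocitrate dehydrogenase, had 96.7, 92.9, 94.1 and 92.8 CPM in the shHNRNPC libraries, against 50.8, 53.6, 52.1 and 56.7 CPM in the control libraries. It reached 177% of control with no overlap (0.82, SE 0.0338, edgeR adjusted p = 6.98e-32), while its cytosolic counterpart IDH1 rose by 0.09. IDH2 lies on chromosome 15 from 90083045 to 90102468.

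The 3 subunit genes of the NAD-dependent isocitrate dehydrogenase rose together. IDH3B had 141, 145, 152 and 144 CPM in the shHNRNPC libraries, against 114, 109, 110.1 and 108 CPM in the control libraries (0.40, SE 0.0270, edgeR adjusted p = 3.5e-21). IDH3G changed by 0.38 and the catalytic subunit gene IDH3A by 0.29, although 60.3% of the exon bases of IDH3A overlap an opposite-strand gene. CS, citrate synthase, rose to 382 ± 2.96 CPM in shHNRNPC samples, against 346 ± 8.05 CPM in control samples (0.14).

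Succinyl-CoA ligase pairs the alpha subunit SUCLG1 with a GTP-forming (SUCLG2) or ATP-forming (SUCLA2) beta subunit. SUCLG1 had 80.8, 82.3, 84.7 and 82.0 CPM in the shHNRNPC libraries, against 70.9, 69.3, 70.4 and 71.3 CPM in the control libraries (0.23, SE 0.0315, edgeR adjusted p = 2.3e-09), with no overlap. SUCLG2 was called lower (-0.12, edgeR adjusted p = 0.0181), but its groups overlapped. That call was lost without shHNRNPC replicate 1 or 3 or control replicate 1 or 4 (-0.10, -0.09, -0.07 and -0.10; adjusted p = 0.0633, 0.0873, 0.152 and 0.0544) and without shHNRNPC replicates 1 and 4 together (0.0969); its range over alternatives was 0.000506 to 0.152. SUCLA2 (0.06) and FH, fumarase (0.01), were not called.

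Malate dehydrogenase closes the cycle in mitochondria (MDH2) and serves the malate-aspartate shuttle in the cytosol (MDH1). MDH1 had 163, 169, 168 and 169.8 CPM in the shHNRNPC libraries, against 123, 127, 122 and 131 CPM in the control libraries (0.42, SE 0.0257, edgeR adjusted p = 5.58e-23), with every knockdown library higher. MDH2 fell slightly, with 597 ± 3.33 CPM in shHNRNPC samples and 633 ± 16.1 CPM in control samples (-0.08).

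The steepest fall belonged to PCK2, the mitochondrial phosphoenolpyruvate carboxykinase, which makes phosphoenolpyruvate from oxaloacetate and is a known target of the stress factor ATF4. PCK2 had 23.5, 24.8, 22.6 and 22.7 CPM in the shHNRNPC libraries, against 103, 103, 101 and 105 CPM in the control libraries. It kept 22.7% of the control level (-2.14, SE 0.0381, edgeR adjusted p = 7.68e-52). PCK2 lies on chromosome 14 from 24094171 to 24104125, with no exon bases shared with another gene. PC, pyruvate carboxylase, was called higher by a small margin (0.13, edgeR adjusted p = 0.029), with 23.5 ± 0.673 CPM in shHNRNPC samples and 21.5 ± 0.865 CPM in control samples. That call was lost with library totals alone (0.11, adjusted p = 0.0692), without shHNRNPC replicate 1 (0.11, 0.0837), without control replicate 2 or 3 (0.13 and 0.11; 0.0512 and 0.0890) and without shHNRNPC replicates 1 and 4 together (0.11, 0.152); its range over alternatives was 0.0179 to 0.152.

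CKB, the brain-type cytosolic creatine kinase, which buffers ATP through phosphocreatine, rose most. It had 32.9, 33.2, 30.8 and 29.3 CPM in the shHNRNPC libraries, against 6.77, 4.09, 7.40 and 6.07 CPM in the control libraries. The change was 2.38 on the log2 scale (SE 0.133, edgeR adjusted p = 4.7e-08), with relatively wide spread among the controls and no overlap. CKB lies on chromosome 14 from 103519667 to 103522830.

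Where a step is served by several members, their shares were compared per kilobase of exon. A share is the part of a gene in the CPM per kb summed over the members of that step. Other measured genes, such as ENO3 of enolase, were left out of the sums. Of 10 shares, 9 differed by the two-sided exact permutation test of the group labels (p = 0.0286, the smallest that 70 assignments allow). Their adjusted p was 0.0317 (Benjamini-Hochberg over the 10 shares, n = 4 per group). This p is reached whenever the groups do not overlap. No background of shares of other genes was computed, and 70.8% of all genes tested had CPM without overlap. The count of 9 therefore does not by itself set these steps apart. PFKP supplied 72.0 ± 0.474% of phosphofructokinase transcripts in shHNRNPC samples and 53.6 ± 0.478% in control samples. The SLC16A3 share of the lactate transporters was 24.4 ± 0.621% in shHNRNPC samples and 13.1 ± 0.494% in control samples. IDH2 made up 43.9 ± 0.991% of the NADP-dependent isocitrate dehydrogenases in shHNRNPC samples and 32.0 ± 1.10% in control samples.

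The HK2, LDHB and MDH2 shares were lower after knockdown. HK2 had 21.7 ± 0.478% of hexokinase in shHNRNPC samples and 28.2 ± 0.361% in control samples. LDHB had 64.0 ± 0.311% of lactate dehydrogenase in shHNRNPC samples and 71.3 ± 0.240% in control samples, so LDHA gained. The size of the LDHB share is uncertain, as 62.9% of its exon bases overlap another gene. MDH2 had 71.4 ± 0.323% of malate dehydrogenase in shHNRNPC samples and 77.9 ± 1.01% in control samples. Smaller shifts were lower shares of SLC2A3 and SUCLG2 and a higher share of ENO2. SLC2A3 had 23.8 ± 0.219% of the glucose transporters in shHNRNPC samples and 25.9 ± 0.712% in control samples. ENO2 had 1.82 ± 0.0707% of enolase in shHNRNPC samples and 1.05 ± 0.0361% in control samples. SUCLG2 had 58.1 ± 0.706% of the succinyl-CoA ligase beta subunits in shHNRNPC samples and 61.0 ± 2.03% in control samples. The SUCLG2 shift missed the threshold whenever a shHNRNPC replicate was left out (exact permutation test, adjusted p = 0.0635). Its shares still did not overlap, at 57.1 to 58.8% in the shHNRNPC libraries and 59.6 to 64.0% in the control libraries. With groups of unequal size, shares without overlap need not reach the smallest p. The miss therefore does not by itself show that the shift rests on those replicates. The share of ALDOC in aldolase overlapped between groups (exact permutation p = 0.0857) and rests on the uncertain ALDOA counts.

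**Figure D3:**
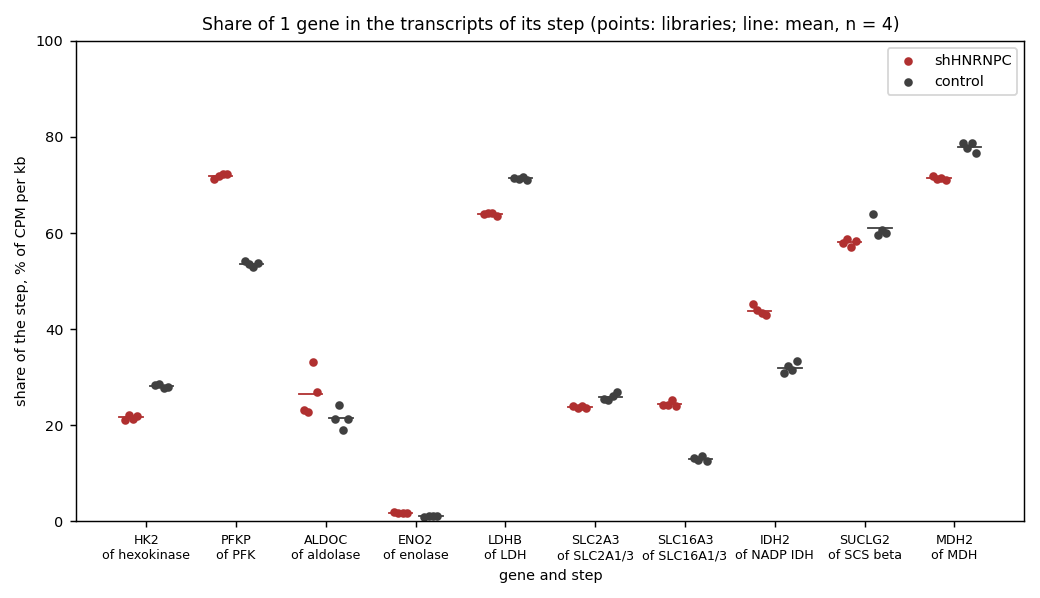
Share of 1 gene in the CPM per kb summed over the members of its step, in percent. Values are shown for each shHNRNPC library (red, left of each pair) and control library (grey, right), with a line at the mean of 4. PFKP, SLC16A3 and IDH2 sit 18.4, 11.4 and 11.9 percentage points higher after knockdown, HK2, LDHB and MDH2 lie lower (differences of -6.50, -7.37 and -6.52 points), and the points of ALDOC overlap.

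Measured as CPM per kb, the order of levels was led by GAPDH in both groups, with 3027 ± 53.7 in shHNRNPC samples and 2844 ± 28.1 in control samples. In control samples LDHB (62.9% of exon bases overlapping another gene), ENO1, PKM, TKT and TPI1 followed. In shHNRNPC samples PKM (692 ± 8.30 CPM per kb) stood second and TPI1 stood above TKT. MDH2 and LDHA, neighbours in the control order at 235 ± 5.98 and 234 ± 6.44 CPM per kb, did not differ there beyond their spread, whereas in shHNRNPC samples LDHA (340.0 ± 3.59) lay above MDH2 (222 ± 1.23).

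Promoter sequence was available from RefSeq (GRCh38.p14, 250 bases before to 50 after each start) for 44 of the 46 members; SLC2A3 and SLC16A1 had no entry. The word ACGTG, the core of the hypoxia response element, was searched on both strands, where its reverse complement is CACGT and the E-box CACGTG contains both. It was found for 15 of 30 members that rose, 3 of 9 that fell and 1 of 5 not called. Counted by gene, that was 43.2% of the 44 members, against 24.9% of all 27305 genes. Those 27305 genes were not limited to genes tested here, whereas all members were tested. Counted by promoter, it was 31.1% of the 74 member promoters, against 21.4% of all 35116 promoters. The windows below are shown because the word stands before starts of members that moved in opposite directions, PFKP, PGK1, GAPDH and SLC16A3 higher and HK2 and PGD lower. Capitals mark each match, all 6 genes are on the plus strand, and each stretch lies outside annotated exons and before a RefSeq transcript start. For PGK1 and PGD the stretch precedes the start of the whole gene. For PFKP, GAPDH, SLC16A3 and HK2 it precedes an alternative start and lies within the gene's annotated span, and which start these cells use was not measured.
PFKP, chr10:3069030-3069074: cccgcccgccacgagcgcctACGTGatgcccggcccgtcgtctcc
PGK1, chrX:78104026-78104089: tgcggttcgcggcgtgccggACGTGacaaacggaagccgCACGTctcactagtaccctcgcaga
GAPDH, chr12:6535163-6535208: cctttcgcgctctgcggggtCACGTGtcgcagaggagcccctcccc
SLC16A3, chr17:82228954-82229011: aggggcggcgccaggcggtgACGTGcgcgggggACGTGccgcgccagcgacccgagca
HK2, chr2:74834956-74835046: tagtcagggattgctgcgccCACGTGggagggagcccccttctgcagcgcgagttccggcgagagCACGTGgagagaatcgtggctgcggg
PGD, chr1:10398899-10398943: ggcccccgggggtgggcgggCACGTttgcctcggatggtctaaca

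Other words were searched on both strands in the same way. CACGTG stood in 9.46% of member promoters and 7.26% of all, and the GC box GGGCGG in 67.6% of member promoters and 45% of all. TGATGNAAT, a CCAAT/ATF response element core, was found for HK1 alone among the members and in 0.991% of all promoters; these letters were not in the PCK2 window. A match describes the sequence and does not show binding.

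Further genes of the same pathways were read from a list that left out the members. Of 69 listed genes 40 were tested, of which 21 rose and 10 fell, with a median of 0.11. The share called was 77.5%, close to the 77.3% of all genes tested. By direction, 52.5% were higher and 25.0% lower, against 38.7% and 38.6% of all genes tested. SLC2A6, a lysosomal sugar transporter, rose most, to 9.93 ± 0.579 CPM in shHNRNPC samples, against 3.60 ± 0.227 CPM in control samples (1.46). SLC2A8 (0.75), the cytosolic aconitase gene ACO1 (0.79), and SHPK (0.71), the sedoheptulokinase, rose as well, SHPK with 74.4% of exon bases shared with other genes. PGAM4 (1.08), at 2.49 ± 0.289 CPM in shHNRNPC samples and 1.17 ± 0.190 CPM in control samples, is a near-copy of PGAM1 and can share its reads. PFKFB1 fell (-0.82), at 0.835 ± 0.164 CPM in shHNRNPC samples and 1.46 ± 0.220 CPM in control samples.

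Genes of mitochondrial shuttles and of citrate use rose in 14 of 19 tested cases and fell in 3, with a median of 0.30. These were 73.7% higher and 15.8% lower, against 38.7% and 38.6% of all genes tested. SLC25A1, the mitochondrial citrate carrier, stood at 100.4 ± 3.65 CPM in shHNRNPC samples and 47.9 ± 1.81 CPM in control samples (1.07, SE 0.0342, edgeR adjusted p = 9.31e-38). ACLY, which splits cytosolic citrate into acetyl-CoA, stood at 391 ± 6.03 CPM in shHNRNPC samples and 232 ± 4.30 CPM in control samples (0.75). The acetate-activating enzymes went apart, ACSS1 (mitochondrial) changing by 1.04 and ACSS2 (cytosolic) by -0.90. The dicarboxylate carrier SLC25A10 (0.88, 60.4% of exon bases shared) also rose.

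Regulators of sugar metabolism showed no common direction, with 6 of 17 tested higher, 6 lower and a median of 0.01. Each count was 35.3% of those tested, against 38.7% higher and 38.6% lower over all genes tested. EPAS1, which encodes HIF-2 alpha, fell to 60.9 ± 2.21 CPM in shHNRNPC samples, against 134 ± 2.69 CPM in control samples (-1.14, SE 0.0302, edgeR adjusted p = 2.24e-42). MYC (-0.75), ATF4 (-0.71) and ARRDC4 (-0.47) fell, while PRKAA1 (0.55), a catalytic subunit of AMP-activated kinase, and MLXIP (0.45), a glucose-sensing transcription factor, rose. These are transcript levels, and protein levels and activities were not measured.

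**Figure D4:**
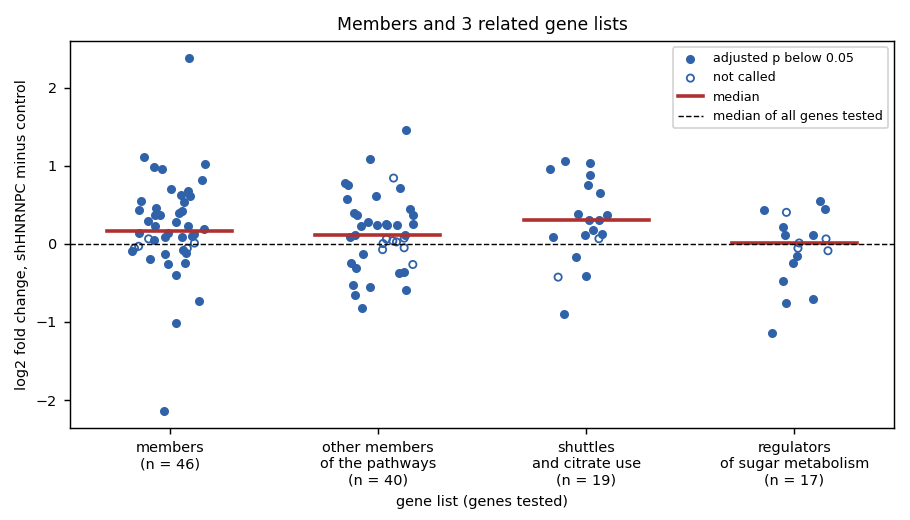
Log2 fold change (shHNRNPC minus control) of the 46 members, 40 other genes of the pathways, 19 shuttle and citrate genes and 17 regulators, with filled points for adjusted p below 0.05, a red line at each median (0.16, 0.11, 0.30 and 0.01) and a dashed line at the median of all genes tested (-0.01). The sideways spread of points carries no information.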

How the data were processed

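The authors deposited raw read counts per gene for 8 libraries. Per the series design text reads were trimmed with fastp, and the submitters' processing notes name hg38; no source used here gives the aligner, counter, annotation or strand setting. Members and lists were chosen with earlier results of these data known. Groups follow the genotype labels. Counts were filtered with filterByExpr (minimum count 10, total 15), scaled with TMM and tested with edgeR 4.0.16 (R 4.3.3) by the quasi-likelihood test on group alone, with Benjamini-Hochberg adjustment over all 12001 tested genes and a threshold of 0.05. Standard errors were taken as |log2 fold change| over the root of the F statistic. Chi-square per degree of freedom between replicates was 2.66 to 3.70, so no library repeated another. The fit was checked on simulated counts. Exon lengths, overlaps and pseudogene names came from GENCODE release 29, positions and promoters from RefSeq.

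Values per library are given for called members whose log2 fold change was 0.5 or more in size and for the most changed member of each step with several members; from each related list up to 6 genes of at least 1 CPM with the largest called changes are named, except 1 that is not reported here. ENO3, PFKFB2, PFKFB4 and the other genes named at the pyruvate dehydrogenase step were chosen outside the rule of up to 6 genes. Isozyme shares used the exact permutation test over all 70 assignments. Protein sequences were not used here. Alternatives were RLE factors, library totals alone, no filter, a filter at 1 CPM, DESeq2 1.42.0, a replicate block, each library left out and, added after seeing the data, shHNRNPC replicates 1 and 4 left out together.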

Additional observations from a re-analysis of the deposited data

Results flagged for a closer look

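Of 112 groups of 4 libraries examined (46 members and 10 isozyme shares in each of both groups), 2 held a library far from its 3 neighbours, and chance flags about 1 in 20 groups. TPI1 in shHNRNPC replicate 1 was at 1123 CPM, below 1142 to 1143 CPM in the other shHNRNPC libraries. PDK1 in control replicate 3 was at 54.0 CPM, below 57.8 to 58.6 CPM in the other control libraries. Both lie on the same side of the other group as their neighbours.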

How the results depend on the processing

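Over 15 alternatives the members were called higher in 28 to 31 cases and lower in 10 to 14. With the replicate block 30 members were higher and 11 lower, and 4605 and 4614 of all genes. The block changed no member's call. Same-numbered libraries did not deviate together (residual correlations -0.0552 to 0.017). That does not settle whether samples of the same number were prepared together. The TCA cycle sum was 0.11 (log2 ratio) with library totals alone, against 0.13 with TMM. The sign of FH, which was never called, turned with library totals alone (-0.011) and without shHNRNPC replicate 1 (its range with 1 library left out was -0.0092 to 0.0286). Leaving out 1 library moved the SUCLG2 share difference between -3.48 and -2.0 percentage points. Library totals alone also brought SLC2A1 (-0.05), PFKFB3 (-0.08) and RPE (-0.08) past the threshold, and so did leaving out control replicate 1 for RPE and control replicate 4 for PFKFB3 and SUCLA2. The cause of these shifts was not tested. Apart from FH, LDHB, PC, SUCLG2 and these 4 genes, the remaining 38 members kept their direction and their side of the threshold under all 15 alternatives. Depth limits ALDOC most, the member with the fewest counts (1.62 to 4.68 CPM).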
